A study of Mus musculus with 6 samples.

Results

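Activity-induced effector and feedback genes were followed in the mouse forebrain after 1 h of water avoidance stress (WAS). The 9 genes Arc, Nptx2, Dusp1, Dusp4, Dusp5, Dusp6, Ier2, Btg2 and Gadd45b were taken by their symbols from the 23282 entries of the deposited count tables. All 9 had a single entry. Male C57BL/6J mice, aged 8 to 10 weeks, stood for 1 h on a small platform that was surrounded by water in the WAS group and stood in a dry container in the control group. According to the methods of the study they were killed directly afterwards, whereas a figure legend places the tissue at 1 h after WAS. The RNA of a forebrain hemisphere without olfactory bulb and cerebellum was sequenced in 3 libraries labelled WAS and 3 libraries labelled control. Both groups thus shared the handling, the platform and the time spent on it.

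Inside the count tables, the heading of the count column begins with WC where the sample is labelled WAS, and with WS where it is labelled control. The sources used here do not define these headings. Groups follow the sample labels, and each direction given below would turn around if the labels had been exchanged.

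When a neuron is strongly activated, calcium entry and kinase cascades such as the ERK pathway switch on a set of genes within minutes, without new protein synthesis. Many of these immediate early genes encode transcription factors, whereas others act directly as effectors at the synapse or as brakes on the signal that induced them. Arc protein drives the removal of AMPA-type glutamate receptors from synapses, and the secreted pentraxin Nptx2 clusters such receptors at excitatory synapses on interneurons. Dusp genes encode phosphatases that inactivate MAP kinases, with Dusp1, Dusp4 and Dusp5 in the nucleus and Dusp6 in the cytoplasm. Ier2, Btg2 and Gadd45b encode a nuclear immediate early protein, an antiproliferative cofactor of mRNA deadenylation and a stress sensor linked to DNA demethylation, respectively.

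The libraries held between 9248520 and 10502029 counts, and the 45S ribosomal RNA gene Rn45s took 4.96% to 7.32% of them. The counts came from the 3′ end of polyadenylated transcripts. Levels are given as CPM, the count divided by the library total and multiplied by 1000000. Counting error alone is covered by the limits given for counts of 0. Neuronal markers such as Snap25 and Syt1 were present in every library, and none of the 6 neuronal markers was at 0. Marker levels of some brain regions differed widely between the libraries. The summed level of 8 markers of striatal projection neurons lay between 153 and 1976 CPM in the libraries labelled WAS, with 153 CPM in WAS replicate 1 and 376 CPM in WAS replicate 3, and between 981 and 1343 CPM in the libraries labelled control. Markers of thalamic neurons (6 genes) summed to 679 and 582 CPM in WAS replicates 1 and 3 and to between 277 and 293 CPM in the other 4 libraries. Choroid plexus markers (6 genes) were at 51.7 CPM in WAS replicate 1 and 16.1 CPM in control replicate 2, against 924 to 1235 CPM in the rest. In none of these lists was a marker at 0 in all libraries, although the striatal marker Drd2 had 1 count in control replicate 2 and 0 in the others. In tissue RNA of this kind, fewer cells of a type and less RNA per cell cannot be told apart.

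**Figure D1:**
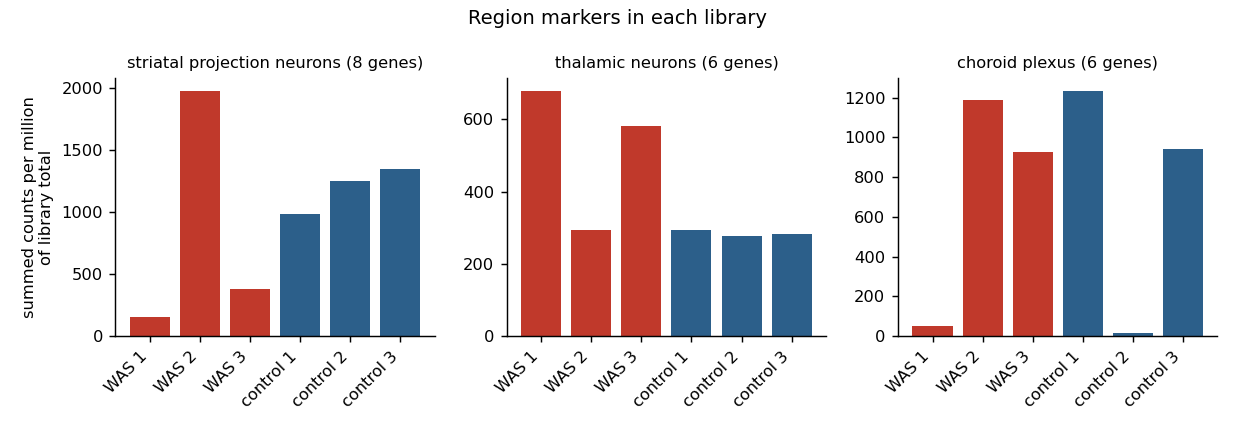
Summed CPM (vertical axes, linear from 0) for markers of striatal projection neurons (8 genes), thalamic neurons (6 genes) and choroid plexus (6 genes) in each of the 6 libraries. Red bars are libraries labelled WAS and blue bars libraries labelled control, with the lowest striatal sum, 153 CPM, in WAS replicate 1.

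Promoter sequence was given by RefSeq on GRCm38.p6 for 5 of the 9 genes, namely Dusp1, Dusp5, Dusp6, Btg2 and Gadd45b. Both strands of windows from 250 bases before to 50 bases after the transcript start were searched for sequences known to bind the factors that switch on early genes. These were the cAMP response element TGACGTCA, its core TGACG (which every full element also contains), the CArG box bound by serum response factor, the AP-1 site TGANTCA and the EGR site GCGTGGGCG. The windows of Dusp1, Btg2 and Dusp5 are shown up to the transcript start because they held the matches, with every TGACG or its complement and every CArG box in capitals. Dusp1 lies on the minus strand at chr17:26508473-26508722, Btg2 on the minus strand at chr1:134079156-134079405 and Dusp5 on the plus strand at chr19:53528895-53529144.
Dusp1: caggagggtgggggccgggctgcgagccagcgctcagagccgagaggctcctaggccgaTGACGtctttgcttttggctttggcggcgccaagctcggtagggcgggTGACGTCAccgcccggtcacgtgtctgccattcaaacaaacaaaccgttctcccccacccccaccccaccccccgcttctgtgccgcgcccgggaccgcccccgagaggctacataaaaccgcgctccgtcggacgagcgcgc
Btg2: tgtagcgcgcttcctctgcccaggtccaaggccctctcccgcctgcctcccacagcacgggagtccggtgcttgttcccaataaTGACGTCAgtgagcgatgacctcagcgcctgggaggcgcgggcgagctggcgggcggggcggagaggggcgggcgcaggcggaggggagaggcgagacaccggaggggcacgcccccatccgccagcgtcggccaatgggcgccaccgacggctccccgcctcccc
Dusp5: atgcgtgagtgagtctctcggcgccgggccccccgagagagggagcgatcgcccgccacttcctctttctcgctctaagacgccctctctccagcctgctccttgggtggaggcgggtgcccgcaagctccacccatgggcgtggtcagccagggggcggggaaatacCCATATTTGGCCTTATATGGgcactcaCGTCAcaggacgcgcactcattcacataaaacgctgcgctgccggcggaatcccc

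Dusp1 and Btg2 each held 1 full cAMP response element, at -143 and -166 from the transcript start. A full element was found in 1.79% of the 32851 windows of all genes in the table. Dusp1 held a further core at -191, and the core was found in 20.8% of all windows. In Dusp5, 2 CArG boxes stood side by side at -82 and -72, followed by a core at -55, and a CArG box was found in 1.63% of all windows. The windows of Dusp6 and Gadd45b held 0 matches to any of these sequences. The AP-1 and EGR sites, found in 7.81% and 0.612% of all windows, were in none of the 5 windows. A match describes the letters only and does not show that a factor was bound.

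Of the 9 genes, 8 passed the filter on low counts and entered the test across 15239 genes, and Dusp5 did not. By edgeR's quasi-likelihood test with adjustment over all genes, 0 of the 8 passed an adjusted p of 0.05, as did 0.00% of all genes (22 genes with DESeq2 and 30 with edgeR's exact test, again without any of the 8). At an unadjusted p under 0.05, 1 of the 8 passed, Btg2, against 7.24% of all genes. Split by direction, 1 was higher and 0 were lower in the libraries labelled WAS, against 3.85% and 3.40% of all genes. Btg2 was also the only gene of the 8 whose groups did not overlap in CPM, against 12.20% of all genes, of which 8.42% were higher and 3.76% lower with the label WAS. These shares lay near those of all genes. With a fold change of at least 1.5 in addition, which is the limit the study used, 0 of the 8 passed, against 2.49% of all genes. The log2 fold changes of the 8 ran from -0.35 for Dusp4 to 0.47 for Ier2, with 3 above 0 and a median of -0.088, beside 50.20% above 0 and a median of 0.00088 for all genes tested.

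**Figure D2:**
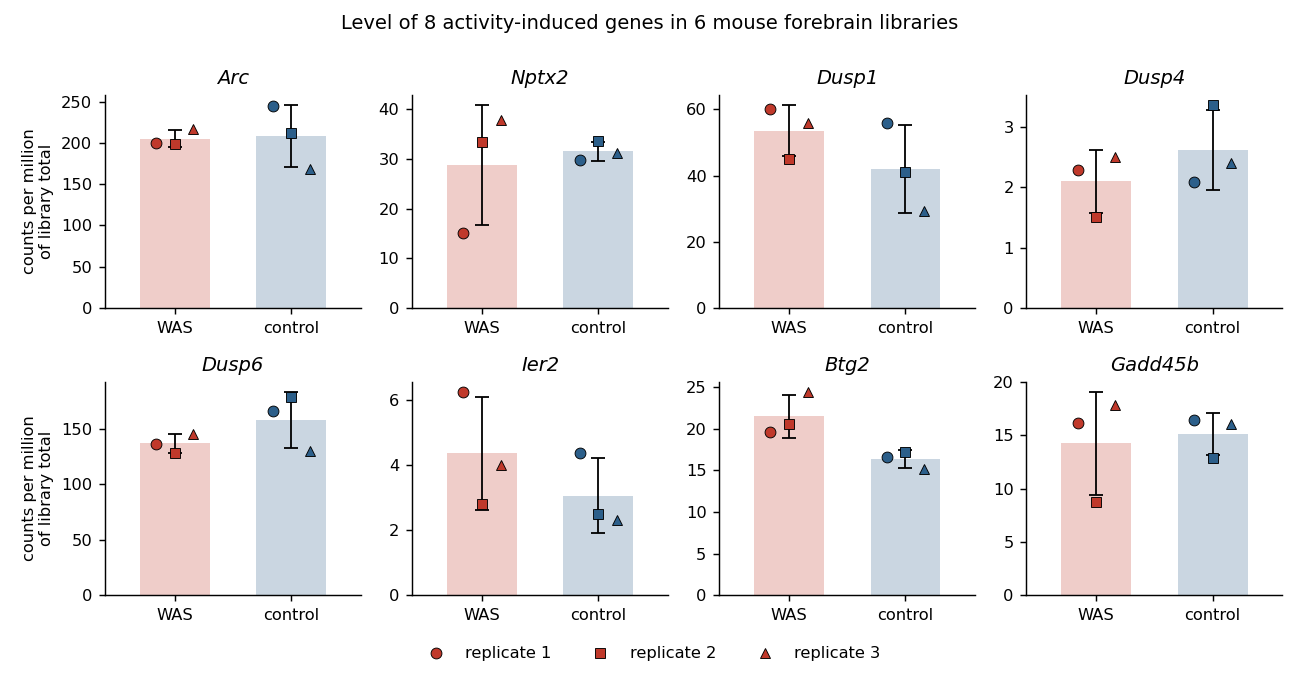
CPM of the library total (vertical axes, linear from 0) for the 8 genes with counts. Bars are means of 3 libraries, error bars are 1 SD, and circles, squares and triangles are replicates 1, 2 and 3 of the libraries labelled WAS (red) and control (blue), with no overlap between the groups for Btg2 alone.

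Arc, the activity-regulated cytoskeleton gene, lies on the minus strand of chromosome 15 at 74669083 to 74672570 (GRCm38) and has 3 exons. It was measured at 200.3, 198 and 217 CPM in WAS replicates 1, 2 and 3. The control replicates 1, 2 and 3 were at 244, 212 and 169 CPM. The control libraries thus enclosed all 3 libraries labelled WAS, with control replicate 1 the highest and control replicate 3 the lowest of the 6. The means were 205 ± 10.2 CPM (SD, n = 3) with the label WAS and 208 ± 37.9 CPM (SD, n = 3) with the label control. This gave a log2 fold change of -0.056 (standard error 0.12, 95% interval -0.31 to 0.20, adjusted p 0.961 in edgeR), so the interval of the fold ran from 0.806 to 1.15. For the best known marker of recent neuronal activity in this set, a change of 1.5-fold in either direction therefore lay outside the interval. Without control replicate 1 the log2 fold change of Arc was 0.064, and without control replicate 3 it was -0.18.

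Nptx2 lies on the plus strand of chromosome 5 at 144545902 to 144557478 and has 5 exons. Its level was 15.2 CPM in WAS replicate 1, from 153 counts, and 33.5 and 38.0 CPM in WAS replicates 2 and 3. The control libraries were close together at 29.8, 33.7 and 31.2 CPM. A single library, WAS replicate 1, stood below all others, and the remaining 5 lay within a narrow range. This library also had the lowest sum of striatal markers (153 CPM) and a low sum of choroid plexus markers (51.7 CPM), and the part of these differences in the level of Nptx2 was not tested. For Nptx2 the log2 fold change was -0.17 (standard error 0.25, 95% interval -0.72 to 0.39, adjusted p 0.946 in edgeR). Without WAS replicate 1 it was 0.14, and without WAS replicate 3 it was -0.42. The coefficient of variation between the libraries labelled WAS was 41.8%, against 6.29% between the control libraries. Its relatives Nptx1 and Nptxr, which assemble with Nptx2 into complexes that bind AMPA receptors, had log2 fold changes of -0.034 and 0.037 (standard errors 0.084 and 0.085).

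Dusp1, which encodes the nuclear phosphatase MKP-1, has its longest coding transcript, of 4 exons, on the minus strand of chromosome 17 at 26505590 to 26508519. It was measured at 60.1, 44.98 and 55.8 CPM in WAS replicates 1, 2 and 3. Levels of 55.9, 41.0 and 29.4 CPM were found in control replicates 1, 2 and 3. The groups overlapped because control replicate 1 lay above WAS replicates 2 and 3, while control replicate 3 was the lowest library. The means were 53.6 ± 7.79 and 42.1 ± 13.3 CPM (SD, n = 3 each) for WAS and control. This gave a log2 fold change of 0.31 (standard error 0.19, 95% interval -0.10 to 0.73, unadjusted p 0.127 and adjusted p 0.784 in edgeR). It depended on the control libraries, with 0.56 (unadjusted p 0.00941, adjusted p 0.945 in edgeR) without control replicate 1 and 0.12 without control replicate 3. The interval included a fold of 1 as well as 1.5.

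Dusp6, the cytoplasmic phosphatase that is specific for ERK and is itself induced by ERK signalling, lies on the plus strand of chromosome 10 at 99263231 to 99267489. Its levels were 136, 128 and 145 CPM in WAS replicates 1, 2 and 3. They were 166, 178 and 129 CPM in control replicates 1, 2 and 3. Control replicates 1 and 2 lay above every library labelled WAS, and control replicate 3 lay between WAS replicates 2 and 1. For Dusp6 the log2 fold change was -0.24 (standard error 0.11, 95% interval -0.49 to 0.0052, unadjusted p 0.0542 and adjusted p 0.695 in edgeR). The interval of the fold, 0.711 to 1.004, left out a fall by the 1.5-fold limit of the study. Leaving out control replicate 3 gave -0.36 (unadjusted p 0.00412, adjusted p 0.477 in edgeR), and leaving out control replicate 2 gave -0.15 (unadjusted p 0.254, adjusted p 0.9998 in edgeR).

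Few or no counts were listed for the remaining nuclear phosphatases. Dusp4, on the plus strand of chromosome 8 at 34807297 to 34819894, had 23, 14 and 25 counts in WAS replicates 1, 2 and 3 and 22, 35 and 24 counts in control replicates 1, 2 and 3. These are 1.51 to 2.504 CPM and 2.09 to 3.37 CPM, with overlapping groups, WAS replicate 2 the lowest and control replicate 2 the highest. The log2 fold change of -0.35 had a standard error of 0.37 and a 95% interval of -1.16 to 0.45, so that at this depth a 2-fold lower level and an equal level could not be told apart. It was -0.13 without control replicate 2 and -0.50 without control replicate 1. Dusp5, on the plus strand of chromosome 19 at 53529109 to 53542431, was listed at 0 in all 6 libraries, as were 4593 of the 23282 entries (19.7%). A count of 0 allows up to 3 counts, which is 0.286 to 0.324 CPM per library. A listed 0 does not show that the gene was silent, since Drd2 was also at 0 to 1 counts while Drd1 had 350 to 3380 counts in the same libraries, and whether counting or annotation set these values was not tested. Dusp5 therefore gave no information on the groups, and no fold change was computed.

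Ier2, a gene of a single exon on the minus strand of chromosome 8 at 84661331 to 84662852, had 63, 26 and 40 counts in WAS replicates 1, 2 and 3. Control replicates 1, 2 and 3 held 46, 26 and 23 counts. These correspond to 6.26, 2.81 and 4.01 CPM against 4.38, 2.505 and 2.31 CPM. WAS replicate 1 was the highest library, but the groups overlapped, since control replicate 1 lay above WAS replicates 2 and 3. The log2 fold change of 0.47 was the largest of the 8 genes, with a standard error of 0.37, a 95% interval of -0.33 to 1.28 and an adjusted p of 0.860 in edgeR. Without WAS replicate 1 it was 0.12, and without control replicate 1 it was 0.81.

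Btg2, on the minus strand of chromosome 1 at 134075170 to 134079120, was measured at 19.6, 20.5 and 24.4 CPM in WAS replicates 1, 2 and 3. In control replicates 1, 2 and 3 the levels were 16.6, 17.2 and 15.1 CPM. All 3 libraries labelled WAS lay above all 3 labelled control. The counts behind these levels were 197, 190 and 244 against 174, 179 and 151. The means were 21.5 ± 2.58 CPM (SD, n = 3) and 16.3 ± 1.08 CPM (SD, n = 3), a log2 fold change of 0.36 (standard error 0.14, 95% interval 0.054 to 0.67). The unadjusted p was 0.0251 and the adjusted p 0.628 in edgeR, and the p ranked 607 of the 15239. The unadjusted p was 0.119 without WAS replicate 3, 0.0588 without control replicate 1 and 0.0736 without control replicate 3. Its family members Btg1, Tob1 and Tob2 had log2 fold changes of 0.051, 0.089 and 0.086, none with an unadjusted p under 0.05. Btg4 did not enter the test, with 0 counts in every library.

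Gadd45b lies on the plus strand of chromosome 10 at 80930073 to 80932204 and has 4 exons in its longest coding transcript. The levels were 16.2, 8.76 and 17.8 CPM in WAS replicates 1, 2 and 3. They were 16.5, 12.9 and 16.04 CPM in control replicates 1, 2 and 3. WAS replicate 2, with 81 counts, stood below the other 5 libraries, which held 134 to 178 counts. The log2 fold change was -0.12 (standard error 0.23, 95% interval -0.63 to 0.40, adjusted p 0.960 in edgeR), with 0.13 without WAS replicate 2 and -0.31 without WAS replicate 3. WAS replicate 2 also had the highest sum of striatal markers, 1976 CPM, and the part of this in the level of Gadd45b was not tested. Gadd45g, a relative that is not among the 9 genes, gave 45.9, 32.9 and 37.0 CPM in the libraries labelled WAS and 31.7, 28.2 and 26.2 CPM in the controls, with no overlap. Its log2 fold change was 0.39 (standard error 0.14, unadjusted p 0.0159 and adjusted p 0.585 in edgeR), whereas Gadd45a was at -0.043 (standard error 0.27).

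**Figure D3:**
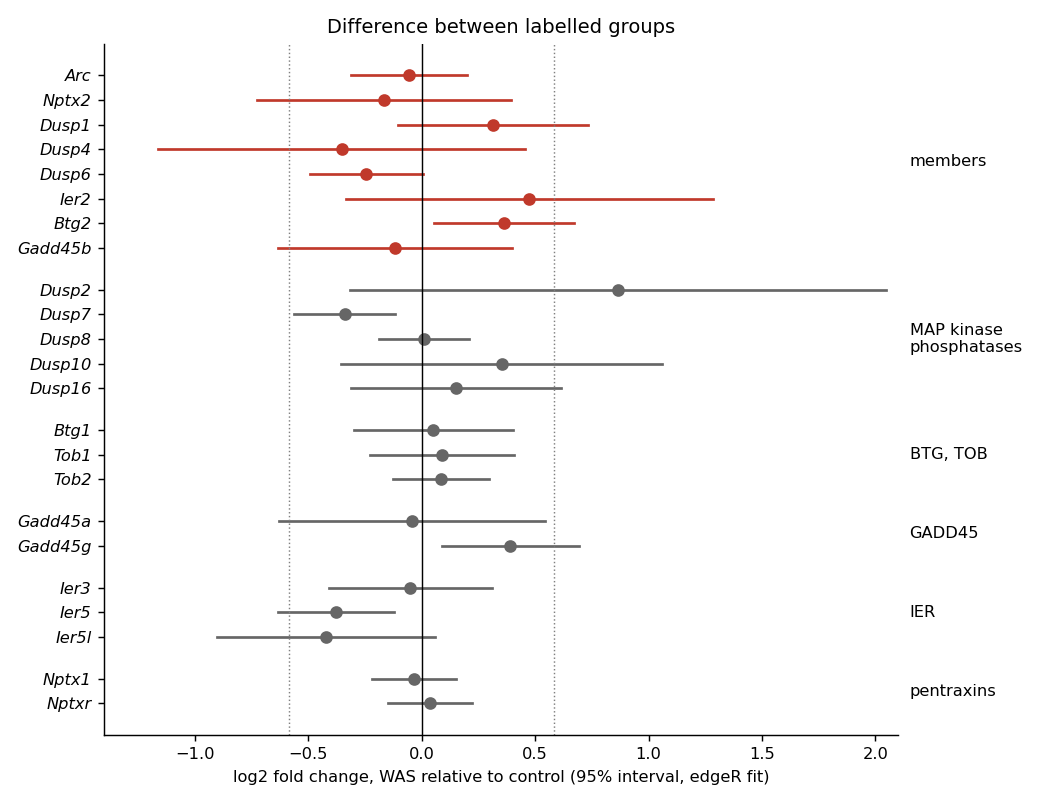
Log2 fold change of the libraries labelled WAS relative to those labelled control (horizontal axis) for the 8 members (red) and their tested relatives (grey). Points are estimates of the edgeR fit, lines are 95% intervals, dotted lines mark a fold change of 1.5, and among the members only the interval of Btg2, 0.054 to 0.67, lies wholly on 1 side of 0.

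In GENCODE M21, none of the 9 genes shared a stretch of 50 bases within the last 500 bases of its longest coding transcript with a transcript of another gene. Dusp1 and Dusp5 overlap other annotated genes. The annotated span of Dusp1, 26505590 to 26562128, overlaps Ergic1 and Gm8225 on the opposite strand and AC122252.1 and AC122252.4 on the same strand. Whether these reach its longest coding transcript was not tested. Dusp5 overlaps AC137853.2 on the opposite strand. Whether the counting used the strand is not given in the sources used here.

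Over the 8 genes, the libraries did not order themselves by group. Control replicate 3 was the lowest library for 4 genes, WAS replicate 2 for 3 and WAS replicate 1 for 1. WAS replicate 3 was the highest library for 3 genes, WAS replicate 1 and control replicate 2 for 2 each and control replicate 1 for 1. Dusp1 and Ier2 had the same order of all 6 libraries, from WAS replicate 1 through control replicate 1, WAS replicate 3, WAS replicate 2 and control replicate 2 to control replicate 3. Between control replicates 1 and 3, which carry the same label, Dusp1 and Ier2 each differed by 1.90-fold and Arc by 1.45-fold, more than any of these genes differed between the group means. The ratio of control replicate 1 to control replicate 3 was 0.956 for Nptx2, 1.03 for Gadd45b and 1.09 for Btg2.

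**Figure D4:**
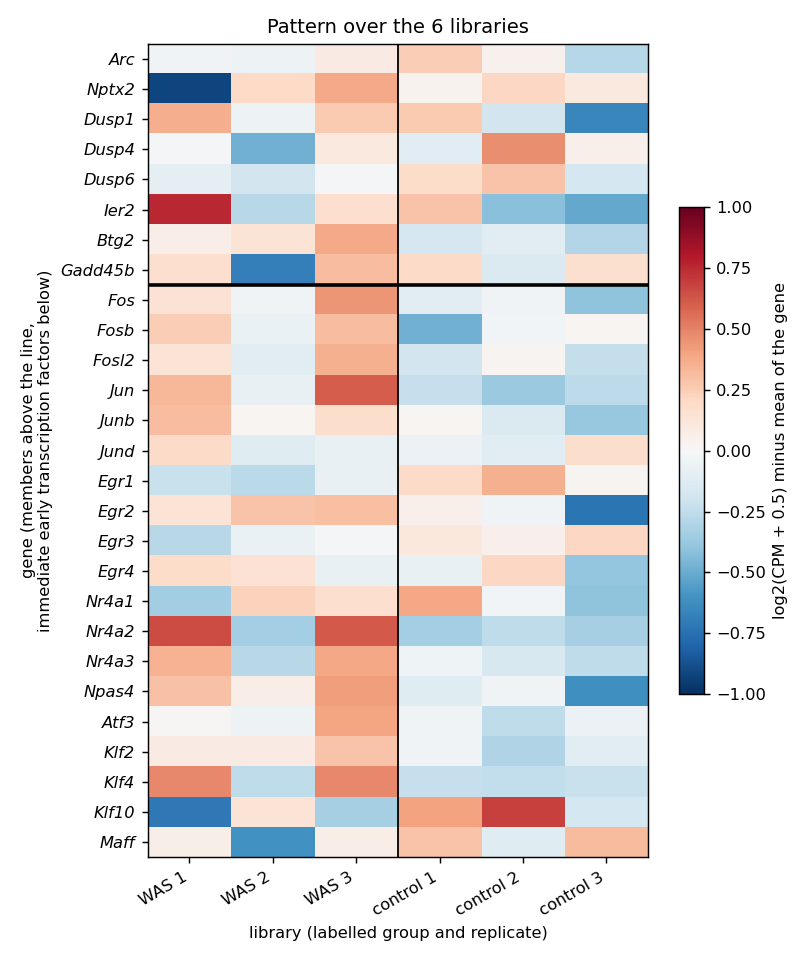
Log2(CPM + 0.5) of each gene minus its mean over the 6 libraries (colour, from -1 in blue to 1 in red) for the 8 members with counts (above the thick line) and for the immediate early transcription factors with a mean of at least 1 CPM (below it). Columns are libraries, with those labelled WAS left of the thin line, and Nptx2 in WAS replicate 1 is the darkest blue field among the members.

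Ratios between members were read within each library, where the scaling between libraries drops out. Of the 28 pairs of the 8 genes, 5 ratios (17.9%) did not overlap between the groups, against 11.4% of all pairs among the 15044 tested genes with a count in every library. Of the 5, 4 involved Btg2, whose own CPM did not overlap, and they repeat that difference. The other was that of Dusp1 to Dusp6, the nuclear and the cytoplasmic phosphatase. For every 100 counts of Dusp6 there were 44.0, 35.0 and 38.4 counts of Dusp1 in WAS replicates 1, 2 and 3 and 33.7, 23.0 and 22.7 in control replicates 1, 2 and 3. This pair was picked after its values were seen, and no test was made.

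The estimated biological coefficient of variation, the spread between libraries of a group beyond counting error, was 14.0% for all genes together. For the 8 genes it was lowest for Dusp6 (11.1%), Arc (11.5%) and Btg2 (11.8%) and reached 16.7% for Dusp1, 19.7% for Gadd45b, 21.9% for Nptx2, 24.7% for Dusp4 and 28.4% for Ier2. The spread of Nptx2 lay above the 12.5% fitted to genes of its abundance, and that of Dusp1 above 11.3%. For Ier2 and Dusp4, both with few counts, the fitted values were 24.6% and 29.4%.

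**Figure D5:**
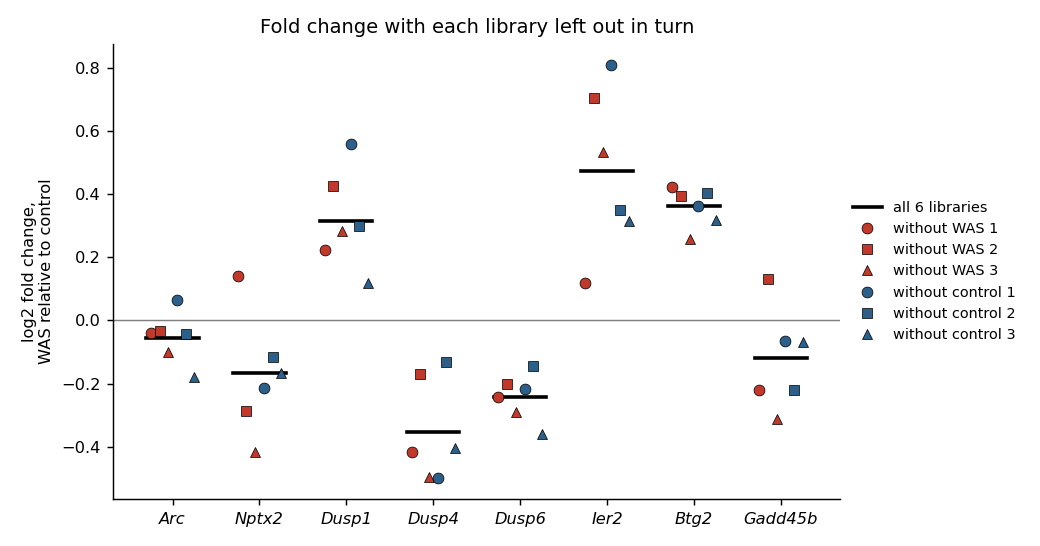
Log2 fold change of the libraries labelled WAS relative to those labelled control (vertical axis) for the 8 genes, with all libraries (black line) and with each library left out (symbols, red for a library labelled WAS and blue for a control library). Arc, Nptx2 and Gadd45b cross 0 when control replicate 1, WAS replicate 1 or WAS replicate 2, respectively, is left out.

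The pathways around these genes were described with lists of related genes, whose counts are to be read against all genes tested, of which 50.20% lay above 0 and, at an unadjusted p under 0.05, 3.85% were higher and 3.40% lower. Of 10 MAP kinase phosphatases, which include the Dusp genes described above, 8 were tested and 5 lay above 0 in log2 fold change. The median of the 8 was 0.081 (0.0053 without control replicate 3 and 0.20 without control replicate 1). Only 1 of the 8 had an unadjusted p under 0.05 in edgeR. This was Dusp7, a cytoplasmic phosphatase for ERK, with 83.4, 94.5 and 96.1 CPM against 127, 109.5 and 102 CPM in the libraries labelled control, and thus without overlap (log2 fold change -0.34, standard error 0.10, unadjusted p 0.00606 and adjusted p 0.539 in edgeR). Dusp8, which acts on JNK and p38, was at 0.010 (standard error 0.090). Of 8 other feedback inhibitors of ERK signalling, the Sprouty and Spred genes and Errfi1, 7 were tested with a median of 0.17 (0.070 without control replicate 3 and 0.076 without WAS replicate 2), and Spry2 alone had an unadjusted p under 0.05, at -0.23. Among 17 MAP kinases and MAP kinase kinases, 16 were tested with a median of -0.026, and Mapk10 (-0.22) and Mapk11 (-0.41) had an unadjusted p under 0.05. None of these genes passed an adjusted p of 0.05 in edgeR.

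Among 20 other effector genes induced by activity, all of which were tested, 6 lay above 0 in log2 fold change, against 50.20% of all genes, and 14 below, with a median of -0.056 beside 0.00088 for all genes. An unadjusted p under 0.05 was found for 3 of the 20, all lower, against 3.40% of all genes lower and 7.24% in both directions. They were Homer1 (-0.42), a scaffold of metabotropic glutamate receptors, Rgs4 (-0.53), a regulator of G protein signalling, and Plk3 (-0.48), a kinase of the cell stress response. Their adjusted p were 0.562, 0.582 and 0.681 in edgeR. Rgs4 is enriched in cortex and striatum, and its levels of 435 and 422 CPM in WAS replicates 1 and 3, against 691 to 789 CPM in the other 4 libraries including WAS replicate 2, went with the striatal marker sums of 153 and 376 CPM. The part of the region markers in this difference was not tested. Bdnf, a neurotrophin gene induced by activity, was at -0.043 (standard error 0.18).
In the IER family of 4 genes, 3 had a log2 fold change below 0. Ier5, a nuclear relative of Ier2, was at 133, 158 and 131 CPM against 183, 202 and 150.1 CPM, with WAS replicate 2 above control replicate 3 (log2 fold change -0.38, standard error 0.12, unadjusted p 0.00759 and adjusted p 0.539 in edgeR). Ier2 and Ier5 thus had estimates of opposite sign, although only that of Ier5 had an interval that left out 0.

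The binding partners of Arc, which include endophilins, dynamin and CaMKIIβ, had 1 of 8 log2 fold changes above 0, against 50.20% of all genes, and a median of -0.11. Camk2b (-0.22) and Cacng2 (-0.20) had an unadjusted p under 0.05, against 3.40% of all genes lower and 7.24% in both directions, and adjusted p of 0.637 and 0.684 in edgeR. The AMPA receptor subunits, whose number at the synapse Arc and Nptx2 regulate, had a median of -0.073, and Gria1 alone had an unadjusted p under 0.05, at 0.27 (adjusted p 0.686 in edgeR). The neuronal markers listed as a check of the tissue had all 6 log2 fold changes below 0, with a median of -0.24 and 3 at an unadjusted p under 0.05. They summed to 4789 to 5288 CPM with the label WAS and 5456 to 6089 CPM with the label control, without overlap. Markers of cortical and hippocampal excitatory neurons likewise had all 6 log2 fold changes below 0, with a median of -0.33 and 3 at an unadjusted p under 0.05. Their sums were 793 to 846 CPM with the label WAS and 852 to 1017 CPM with the label control, again without overlap. Homer1, Rgs4, Camk2b, Cacng2, Egr1 and Egr3 likewise had lower estimates with the label WAS, as did Dusp6, Dusp7, Ier5, Plk3 and Klf10. Arc (-0.056), Bdnf (-0.043) and Nptxr (0.037) had estimates near 0, and that of Gria1 was above 0. The match did not hold in every library. WAS replicate 2 had the lowest sum of excitatory neuron markers, 793 CPM, but Cacng2 was at 474 CPM there and 473 CPM in control replicate 1. The part of the marker sums in the levels of these genes was not tested.

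The immediate early transcription factors, which are switched on by the same signals as the 9 genes, are given for comparison. Of 20, 14 lay above 0, against 50.20% of all genes, and their median log2 fold change was 0.28. An unadjusted p under 0.05 was found for 10, against 7.24% of all genes. Of these, 7 were higher with the label WAS (Fos, Jun, Junb, Nr4a2, Npas4, Klf2 and Klf4), against 3.85% of all genes, and 3 were lower (Egr1, Egr3 and Klf10), against 3.40%. The libraries labelled WAS were not alike in this list. The median of log2(CPM + 0.5), after each gene was centred on its mean over the 6 libraries, was 0.15 for WAS replicate 1, -0.065 for WAS replicate 2 and 0.30 for WAS replicate 3, whereas the controls had -0.044, -0.038 and -0.24 for replicates 1 to 3, so that WAS replicate 2 lay below control replicates 1 and 2. WAS replicates 1 and 3 are also the libraries with high thalamic (679 and 582 CPM) and low striatal (153 and 376 CPM) marker sums, and the part of this in the levels of the transcription factors was not tested. None passed an adjusted p of 0.05 in edgeR. Of the 8 effector and feedback genes, 1 was higher and 0 were lower at the same threshold, and the difference between the lists was not tested. Of 13 glucocorticoid response genes, 11 lay above 0, against 50.20% of all genes, with a median log2 fold change of 0.076, and the metallothionein genes Mt1 (0.21) and Mt2 (0.23) had an unadjusted p under 0.05, against 3.85% of all genes higher.

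Genes with the most similar pattern over the 6 libraries were sought among the 9400 tested genes with a mean of at least 10 CPM, by the root mean square difference of log2(CPM + 0.5) after each gene was centred on its own mean. The nearest were Ipo11 for Arc (0.029), Eif5a2 for Nptx2 (0.059), Rilpl2 for Dusp1 (0.10), Proz for Dusp4 (0.11), Vip for Dusp6 (0.022), Plekhg1 for Ier2 (0.11), Mfsd7b for Btg2 (0.044) and Zfpm2 for Gadd45b (0.095). No member was the nearest gene of another member, and Ier2 and Dusp4 were too low to be candidates themselves.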

How the data were processed

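QuantSeq libraries from 6 forebrain hemispheres were read from a single end over 75 bp. The authors aligned reads with Bowtie2, counted unique and multiple alignments with Bedtools and deposited raw read counts per gene symbol. The submitters' processing notes name mm10, and tool versions are not given in the sources used here. The counts carry no molecular identifiers. Because multiple alignments were counted, near-identical copies can share reads.

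Counts were scaled by TMM (factors 0.976 to 1.01) and fitted in edgeR 4.0.16 (R 4.3.3) with its quasi-likelihood test. Genes entered if log2(count + 1), after quantile normalization, averaged 2 or more over the libraries (15239 genes), since the methods state a log2 cutoff without saying how it was applied. Benjamini-Hochberg adjustment ran over these genes. Standard errors are the log2 fold change over the square root of F. Alternatives were total-count scaling with and without Rn45s, DESeq2 1.42.0, edgeR's exact test, limma 3.58.1 on quantile-normalized values, 2 other filters, a replicate block and leaving out each library. An exact permutation test of 3 against 3 cannot go below 0.1 and was not used. Labels call the replicates biological. The p-values set the difference between the groups against the spread between these samples, which includes their differences in region markers.

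The members and lists were chosen with earlier results of these data known. Named genes were the members, the nearest gene in pattern, and from each list the genes with an unadjusted p under 0.05 and the 2 most abundant, of which not all are named. Gadd45a, Bdnf, Tob1 and Btg4 were named after their values were seen. Btg3 has more than 1 row and was left out. Gene coordinates are from GENCODE M21 (GRCm38) and promoters from RefSeq (GRCm38.p6).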

Additional observations from a re-analysis of the deposited data

How the results depend on the processing

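The log2 fold changes of Dusp1, Dusp4, Dusp6, Ier2 and Btg2 kept their sign in all 14 alternatives, and no member passed an adjusted p of 0.05 in any of them. Sign changes came only from leaving out a library, for Arc (-0.18 to 0.064 over the libraries left out), Nptx2 (-0.42 to 0.14) and Gadd45b (-0.31 to 0.13). The others ran from 0.12 to 0.56 for Dusp1, -0.50 to -0.13 for Dusp4, -0.36 to -0.15 for Dusp6, 0.12 to 0.81 for Ier2 and 0.26 to 0.42 for Btg2. The lowest adjusted p of Btg2 was 0.277, without WAS replicate 2, and the highest 0.9998.

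At an unadjusted p under 0.05, 1 of 8 members passed with all libraries, 2 passed with DESeq2 and 2 without a filter (Btg2 and Dusp6), and 0 to 2 passed with a library left out, where 0 came without WAS replicate 3 and 2 without WAS replicate 2 (Btg2 and Dusp1). Over all genes, an adjusted p under 0.05 was reached by 22 genes with DESeq2 and 30 with edgeR's exact test, and by 0 to 484 with a library left out, where 484 came without WAS replicate 2. At an unadjusted p under 0.05 the left-out fits gave 623 to 2092 genes, with 651 without WAS replicate 3 and 623 without control replicate 2, and with a fold change of 1.5 in addition they gave 261 to 831. The cause was not tested. Medians that moved by more than the spread between libraries were those of the neuronal pentraxins (-0.080 to 0.076), the binding partners of Arc (-0.20 to -0.058), the MAP kinase phosphatases (0.0053 to 0.20) and the GADD45 family (-0.21 to 0.24), each over the libraries left out. Smaller moves that still changed a median by over 1.5 times were those of the other effector genes (-0.15 without WAS replicate 3 to -0.017 without control replicate 2), the other feedback inhibitors of ERK signalling (0.070 without control replicate 3 to 0.17), the MAP kinases and their kinases (-0.044 to 0.017), the BTG and TOB family (0.072 to 0.15), the IER family (-0.30 to -0.096), the AMPA receptor subunits (-0.13 to -0.014) and the glucocorticoid response genes (0.039 to 0.16).

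The replicate block gave 49 genes at an adjusted p under 0.05 and 2 members at an unadjusted p under 0.05, Btg2 and Dusp1 (unadjusted p 0.0393, adjusted p 0.495 in edgeR). Libraries with the same replicate number had correlated deviations from their group means of 0.078, 0.099 and 0.093, each the highest for its library but under 0.1, so that the numbers were not taken to pair mice. Precision was lowest for Dusp4 and Ier2, with 14 to 35 and 23 to 63 counts per library and biological coefficients of variation of 24.7% and 28.4%, and Dusp5 at 0 gave no estimate.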
